A study of Homo sapiens with 12 samples.

Results

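The genes described are the semaphorin, SLIT and netrin ligands of axon guidance and their plexin, neuropilin, ROBO and UNC5 receptors, measured in ES-2 cells after siRNA against each of the 3 IGF2BP proteins. Members were all rows of the deposited table whose gene name is that of a class 3 to 7 semaphorin, a plexin, a neuropilin, a SLIT, a ROBO, a netrin from NTN1 to NTN5 or an UNC5 receptor. The rule used names only and no measured value. It found 46 of 57773 features: 20 semaphorins, 9 plexins, 2 neuropilins, 3 SLITs, 4 ROBOs, 4 netrins and 4 UNC5 receptors. Of these, 29 passed the filter on low reads and were tested, and 17 did not.

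ES-2 is an established human ovarian cancer line, and the 12 libraries are of its total RNA. Of these, 3 are from cells given control siRNA (siC), 3 from cells given a pool of siRNAs against IGF2BP1 (siI1), 3 against IGF2BP2 (siI2) and 3 against IGF2BP3 (siI3). All 4 groups are the same line in the same medium, and time after transfection is not known here. The labels do not tell whether replicates were grown apart, and every p-value therefore rests on library-to-library spread that may be technical. IGF2BP1, IGF2BP2 and IGF2BP3 are cytoplasmic RNA-binding proteins that bind many messenger RNAs.

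Axon guidance proteins steer growing axons and migrating cells. Semaphorins signal through plexins, and secreted class 3 semaphorins mostly use a neuropilin as the binding subunit beside a plexin. Secreted SLITs bind ROBO receptors, and netrins bind DCC, neogenin and UNC5 receptors. The same proteins act outside the nervous system in vessel growth and in the motility and adhesion of carcinoma cells, where semaphorin, SLIT and netrin pathways have been studied as both restraints and promoters of spread.

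The libraries held 3274590 to 11110357 reads assigned to genes. Levels are in FPM, the sequencing depth-scaled unit of the deposited table, and 3 reads, the limit below which a level is not read here, were worth 0.324 to 0.727 FPM. Each targeted gene was below control in its own knockdown: the mean of IGF2BP1 in siI1 was 25.2% of siC, that of IGF2BP2 in siI2 16.8% and that of IGF2BP3 in siI3 19.2%. Libraries of 2 groups stood apart. GC slopes were taken on each library's deviation from the gene's mean over all libraries, so they are relative. In siC replicates 1 and 3 these deviations fell with the GC content of the transcript. The fall was 0.46 and 0.43 on the log2 scale for each 10 percentage points. The slope of siC replicate 2 was 0.03, and the 9 knockdown libraries had slopes of -0.09 to 0.21. A small slope marks a library close to that mean and not one without a trend. In siI3 replicate 3, features under the filter were high: 29.2% of the 31366 such features with any read had their highest level there, and 12 of the 17 untested members did. Of the ES-2 markers, keratins KRT7, KRT8 and KRT18 and the mesenchymal gene VIM were expressed, while EPCAM, CDH1 and KRT19 stayed at or below 1.10 FPM. Of the ovarian lineage markers shown, PAX8 and WT1 stayed at or below 2.91 FPM, and MUC16 stayed at or below 4.61 FPM apart from 10.6 FPM in siI3 replicate 3. Leukocyte markers summed to at most 0.242 FPM in any library.

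Changes were few. A member was called when limma's moderated test on log2(FPM + 1), adjusted by Benjamini-Hochberg over all 13782 genes tested, gave an adjusted p under 0.05. All fold changes on the log2 scale below are of FPM + 1 and understate the change of low genes. Of the 29 members tested, 4 were called in siI1 against siC, where 8.18% of all genes tested were called: SLIT3, PLXND1 and PLXNB2 rose and SEMA3A fell. In siI2 against siC 1 member was called, SLIT3, which rose, against a background of 1.51%. In siI3 against siC 3 were called against a background of 10.6%: SEMA5A rose, and NRP1 and SEMA3A fell. The shares of members called, 13.8%, 3.45% and 10.3%, rest on 4, 1 and 3 genes and lie near the background. The 3 comparisons share the siC libraries. In siI3 against siC the split depended on scaling: 2 members rose and 1 fell with upper-quartile factors, and 1 rose and 1 fell after a correction for GC content and length.

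Some markers of the epithelial and mesenchymal lists moved with the knockdowns, and the mesenchymal genes did not all move the same way. The summed level of the 6 epithelial markers was 653 to 1053 FPM in siC, 1156 to 1464 FPM in siI1, 812 to 1158 FPM in siI2 and 489 to 784 FPM in siI3. KRT7 made up most of each sum and was not called in siI1 (log2 fold change 0.58, limma adjusted p = 0.152). In siI3 its log2 fold change was -0.28 (limma adjusted p = 0.47). After the GC and length correction KRT7 was at 0.22 in siI1 (limma adjusted p = 0.382) and -0.66 in siI3 (limma adjusted p = 0.0164). In siI1, KRT8 rose from 44.0 ± 8.17 to 147 ± 15.4 FPM (SD, n = 3 in each group; log2 fold change 1.73, limma adjusted p = 0.000173) and KRT18 rose from 158 ± 49.9 to 311 ± 53.3 FPM (1.004, limma adjusted p = 0.015). The summed level of the 3 mesenchymal markers was 1025 to 1193 FPM in siC, 450 to 845 FPM in siI1, 370 to 736 FPM in siI2 and 333 to 633 FPM in siI3. Fibronectin (FN1) fell from 134 ± 5.08 FPM to 51.8 ± 3.4 FPM in siI1 (-1.35, limma adjusted p = 0.000435) and to 59.2 ± 13.4 FPM in siI3 (-1.19, limma adjusted p = 0.00241). In siI2 FN1 was 164 ± 9.70 FPM (0.29, limma adjusted p = 0.355), and 0.71 after the GC and length correction (limma adjusted p = 0.0487). VIM was 914 ± 75.6 FPM in siC, 484 ± 209 FPM in siI1, 353 ± 183 FPM in siI2 and 338 ± 153 FPM in siI3, with a limma adjusted p of 0.113 in siI1, 0.0563 in siI2 and 0.0264 in siI3. CDH2, also mesenchymal, was 54.8 ± 8.77 FPM in siC and 67.2 ± 5.75 FPM in siI1 (0.30, limma adjusted p = 0.331). After the GC and length correction its log2 fold change in siI1 was 0.60 (limma adjusted p = 0.0142). In siI2 and siI3 CDH2 was 47.2 ± 7.65 and 41.4 ± 6.18 FPM (limma adjusted p of 0.542 and 0.187). The part of these markers in the member changes was not tested.

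**Figure D1:**
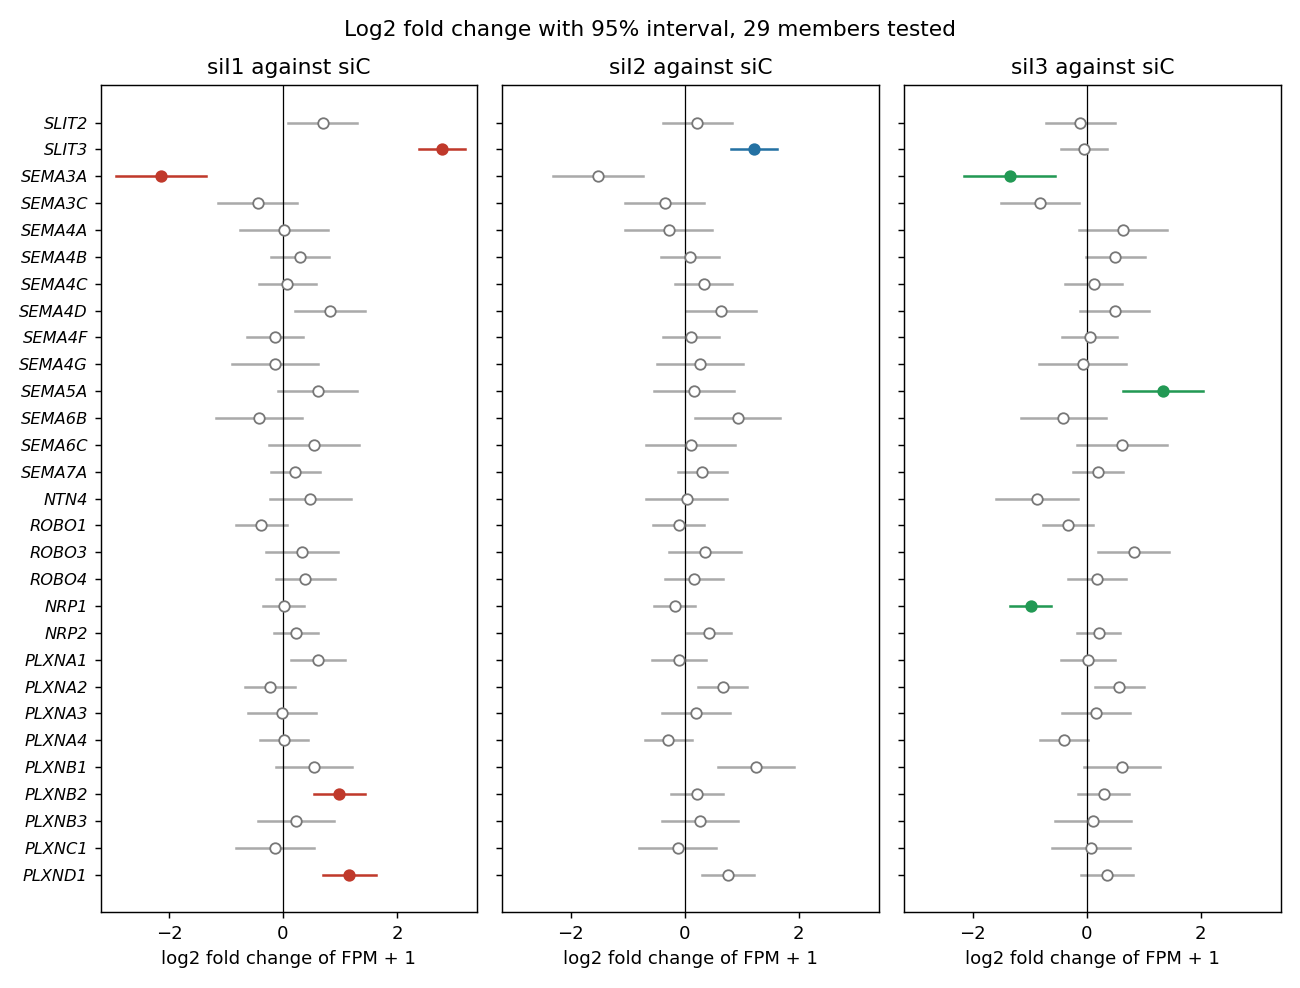
Log2 fold change of FPM + 1 (horizontal axis) for each of the 29 members tested (vertical axis) in siI1, siI2 and siI3 against siC, 3 libraries a group, with the 95% interval of the limma fit as a line. Filled points passed an adjusted p of 0.05 over all genes; SLIT3 lies at 2.79 in siI1 and 1.21 in siI2, and close to 0 in siI3.

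The median log2 fold change of the 29 members was 0.23, 0.19 and 0.12 in siI1, siI2 and siI3, beside -0.05, -0.09 and -0.05 for all genes tested. Members are often GC-rich: 11 of the 29 have a transcript of at least 60% GC, and 10 of those 11 lay above 0 in each of the 3 comparisons, while of the 8 members under 50% GC 4, 3 and 2 did. After the trends with GC content and length were removed from each library the members' medians were -0.03, 0.05 and -0.08, and 5, 5 and 4 of the 11 GC-rich members lay above 0. Spearman's rho between change and GC content across the 29 members was 0.28, 0.51 and 0.44 in siI1, siI2 and siI3 before the correction and -0.14, -0.22 and -0.05 after it. Across 13361 genes it was 0.60, 0.60 and 0.55 before and 0.01, 0.02 and 0.02 after. Genes of a library share its trend and are not independent points.

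**Figure D2:**
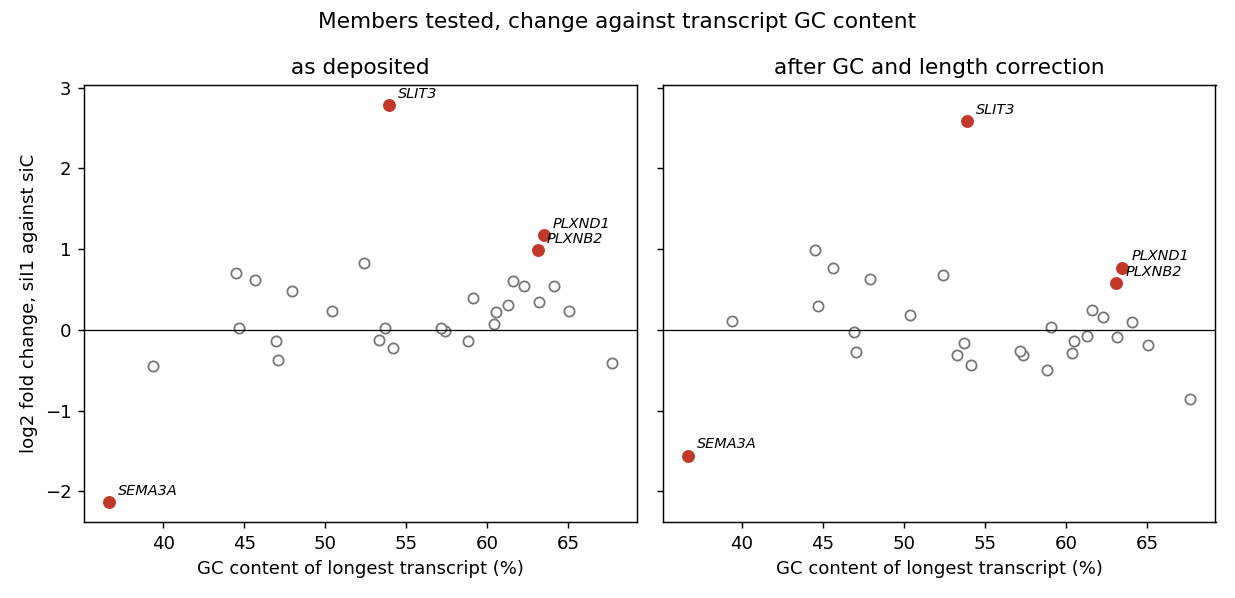
Log2 fold change in siI1 against siC (vertical axis) of the 29 members tested against GC content of the longest annotated transcript in percent (horizontal axis), as deposited (left) and after the GC and length correction (right). Filled points are the 4 members called before the correction; SLIT3 and SEMA3A keep the outermost places in both panels, at 2.58 and -1.56 on the right.

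Among the ligands, SLIT3, a secreted glycoprotein that binds ROBO receptors, changed most. Levels were 11.5, 15.5 and 13.4 FPM in the 3 siC libraries and 99.4, 96.6 and 98.6 FPM in siI1. It was 34.7, 28.5 and 33.9 FPM in siI2 and 15.01, 11.7 and 12.05 FPM in siI3. All siI1 libraries lay above all siI2 libraries, those lay above all others, and siI3 overlapped siC. The mean was 7.29-fold higher in siI1 than in siC (a log2 fold change of 2.79, SE 0.19, limma adjusted p = 6.05e-07) and 2.40-fold higher in siI2 (1.21, SE 0.19, limma adjusted p = 0.00572). In siI3 the log2 fold change was -0.05 with a 95% interval of -0.46 to 0.35.

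The knockdowns were also compared directly. SLIT3 was 3.03-fold higher in siI1 than in siI2 (log2 fold change 1.58, limma adjusted p = 0.000298), and 2.51-fold higher in siI2 than in siI3 (1.26, limma adjusted p = 0.00177). Against siC replicate 2 alone, the control library with a relative GC slope of 0.03, it was higher by 2.59 on the log2 scale in siI1 and by 1.01 in siI2. That fit assumes that the lone library varies like the others, and no call is read from it. The neuron and glia markers also differed between siI1 and siC, with summed levels of 9.74 to 10.6 FPM against 3.36 to 3.99 FPM. MAP2 made up most of these sums, while STMN2 had at most 0.213 FPM in any library. Summed levels in siI2 (3.15 to 8.45 FPM) and siI3 (2.105 to 5.14 FPM) overlapped those of siC. In siI2 MAP2 did not differ past the threshold from siC (log2 fold change 0.05, limma adjusted p = 0.93). In siI3 MAP2 was called lower (-1.03, limma adjusted p = 0.0316), though not after the GC and length correction (-0.59, limma adjusted p = 0.157). The part of these markers in the SLIT3 result was not tested. Exons of SLIT3 share 2.34% and 1.51% of their bases with the exons of 2 antisense genes, and the sources used here do not say whether counting used strand.

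SLIT2, its close relative, was far less abundant. Its level was 3.48, 2.37 and 2.03 FPM in siC, 3.73, 5.76 and 5.13 FPM in siI1, 3.83, 2.57 and 3.15 FPM in siI2 and 2.53, 1.78 and 2.66 FPM in siI3. The siI1 libraries lay above the siC libraries without overlap, on 13 to 36 reads a library over all groups. The log2 fold change in siI1 was 0.70 (SE 0.29) with a limma adjusted p of 0.129. After the GC and length correction it was 0.98 with a limma adjusted p of 0.04. Per kilobase of annotated exon, SLIT3 was 3.49-fold above SLIT2 in siC and 13.7-fold above it in siI1. SLIT1 had at most 1 read in any library.

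Both SLIT genes carry a copy of the miR-218 gene, and the repressed targets known for this miRNA include ROBO1. In GRCh38, MIR218-1 lies at chr4:20528275-20528384 on the plus strand in intron 15 of SLIT2, and MIR218-2 at chr5:168768146-168768255 on the minus strand in intron 14 of SLIT3. The mature miRNA from either copy is the same in RefSeq (GRCh38.p14). It is shown with the seed, bases 2 to 8, in capitals, above the stretch of the ROBO1 3′ UTR that holds the matching letters, also in capitals:
miR-218-5p: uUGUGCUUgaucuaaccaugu
ROBO1 site: tttttttggttttaaAAGCACAatcactaa
The 7 letters of the match (AAGCACA) occur once in the ROBO1 3′ UTR of 1673 bases, from position 971 counted from the first base after the stop codon, and 15.2% of the 3267 gene UTRs of similar length hold them. A match of letters is a description and not a measured site. The table's rows for the 2 miR-218 genes hold at most 3 reads in any library, so the mature miRNA was not measured here.

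The promoter of SLIT3, from 250 bases before to 50 after the start, is given because the gene showed the widest change of the family (RefSeq, GRCh38.p14, chr5:169301090-169301389, minus strand):
SLIT3: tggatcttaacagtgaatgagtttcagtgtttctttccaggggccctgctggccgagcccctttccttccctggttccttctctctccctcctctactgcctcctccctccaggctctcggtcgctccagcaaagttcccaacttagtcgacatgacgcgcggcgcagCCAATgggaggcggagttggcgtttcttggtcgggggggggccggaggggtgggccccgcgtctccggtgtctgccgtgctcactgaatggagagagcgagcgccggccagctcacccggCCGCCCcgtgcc
Capitals mark a CCAAT box (CCAAT) and a GC box (GGGCGG), each searched on both strands with overlapping matches counted. It holds 1 of each and no TATAAA. In all 27305 promoters of this length in the table, 35.7% hold CCAAT, 44.6% GGGCGG and 11.95% TATAAA. Of the 46 members 38 matched a promoter, and 11, 26 and 0 of these hold the 3 motifs. No match means only that these letters are not in this window.

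Semaphorin SEMA3A, the secreted ligand that repels axons through NRP1 and class A plexins, went the other way. Its level was 27.7, 13.05 and 20.7 FPM in siC and 3.11, 6.40 and 2.39 FPM in siI1. It was 4.47, 9.19 and 5.58 FPM in siI2 and 4.77, 6.35 and 11.3 FPM in siI3. Every knockdown library lay below every control library. The mean in siI1 was 19.4% of the siC mean (a log2 fold change of -2.14, SE 0.37, limma adjusted p = 0.0029) and that in siI3 36.5% (-1.35, SE 0.37, limma adjusted p = 0.0334). In siI2 the log2 fold change was -1.53 with a limma adjusted p of 0.0518.

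SEMA3A has the lowest transcript GC content of the tested members, 36.7%, and the 2 control libraries in which GC-poor transcripts were high are also those in which it was highest. After the GC and length correction the log2 fold change was -1.56 in siI1 (limma adjusted p = 0.0081) and -0.92 in siI3 (limma adjusted p = 0.0867). Against siC replicate 2 alone it was -1.58 in siI1 and -0.80 in siI3, with limma adjusted p of 0.434 and 0.803. The call in siI3 also ended with edgeR's quasi-likelihood test on the recovered reads (adjusted p = 0.0508). With replicate number as a block it was -1.35 as before and again missed the threshold. It likewise ended without siC replicate 1 (-1.12), siC replicate 3 (-1.32), siI3 replicate 1 (-1.11) or siI3 replicate 2 (-1.29), each left out singly.

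SEMA5A, a membrane semaphorin with thrombospondin repeats, was raised in siI3. Its level was 1.86, 2.26 and 1.35 FPM in siC and 6.31, 5.72 and 6.20 FPM in siI3. It was 3.26, 3.52 and 3.08 FPM in siI1 and 0.852, 2.39 and 3.88 FPM in siI2. The siI3 libraries lay above all 9 others. The mean in siI3 was 3.33-fold that in siC (a log2 fold change of 1.34, SE 0.33, limma adjusted p = 0.0235), and 1.61 after the GC and length correction (limma adjusted p = 0.011). Without siI3 replicate 3 the log2 fold change was 1.32 (limma adjusted p = 0.025). The call ended without siC replicate 1 (1.35), siC replicate 3 (1.21), siI3 replicate 1 (1.31) or siI3 replicate 2 (1.37), each left out singly. It also ended without the filter on low reads (limma adjusted p = 0.0502). Against siC replicate 2 alone the log2 fold change was 1.12. The gene had 4 to 45 reads a library, and 3.60% of its exon bases are shared with an antisense gene. SEMA5A did not differ past the threshold between siI3 and siI1 (limma adjusted p = 0.221) or siI2 (limma adjusted p = 0.0846).

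The other tested semaphorins passed the test in no comparison. SEMA7A, a lipid-anchored semaphorin that signals through integrins and PLXNC1, was the most abundant member per length in siC, with 23.0 FPM per kb (SD 3.79, n = 3), and its 12 values ran from 78.6 to 133 FPM. Its log2 fold changes against siC were 0.22, 0.31 and 0.20, and each 95% interval covered 0. The class 4 semaphorin SEMA4D, a ligand of PLXNB1, was 8.74 ± 0.686 FPM (SD, n = 3) in siC and 16.3 ± 2.17 FPM in siI1 with no overlap, at a limma adjusted p of 0.0812. SEMA6B, a membrane ligand of class A plexins, was 9.80 ± 3.88 FPM in siC and 18.9 ± 3.90 FPM in siI2, at a limma adjusted p of 0.147. It was 7.40 ± 3.66 FPM in siI1 and 6.82 ± 1.07 FPM in siI3. The differences of siI2 from siI1 and siI3 passed with DESeq2 (adjusted p = 0.0228 and 0.0108). They also passed after the GC and length correction (limma adjusted p = 0.0288 and 0.0243). SEMA3C had 11.4 ± 4.27 FPM in siC and 5.73 ± 0.716 FPM in siI3, at a limma adjusted p of 0.106. SEMA4B, SEMA4C and SEMA4F had group means of 11.0 to 36.4 FPM, and SEMA4A, SEMA4G and SEMA6C of 0.661 to 2.09 FPM.

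NTN4 was the tested netrin. Its level was 5.91, 5.28 and 3.38 FPM in siC, 8.07, 4.32 and 9.74 FPM in siI1, 5.75, 3.12 and 6.30 FPM in siI2 and 1.96, 3.05 and 1.59 FPM in siI3. The siI3 libraries lay below all 9 others. The test passed between siI1 and siI3, where the mean was 3.35-fold higher in siI1 (log2 fold change 1.35, SE 0.34, limma adjusted p = 0.0215), and not between siI3 and siC (-0.87, limma adjusted p = 0.101). Without siI3 replicate 3 the difference between siI1 and siI3 was 1.21 with a limma adjusted p of 0.0555. It also missed the threshold without siI1 replicate 1 (1.26), siI1 replicate 3 (1.14) or siI3 replicate 1 (1.31). With replicate number as a block and the GC and length correction together it missed it too (limma adjusted p = 0.0606).

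**Figure D3:**
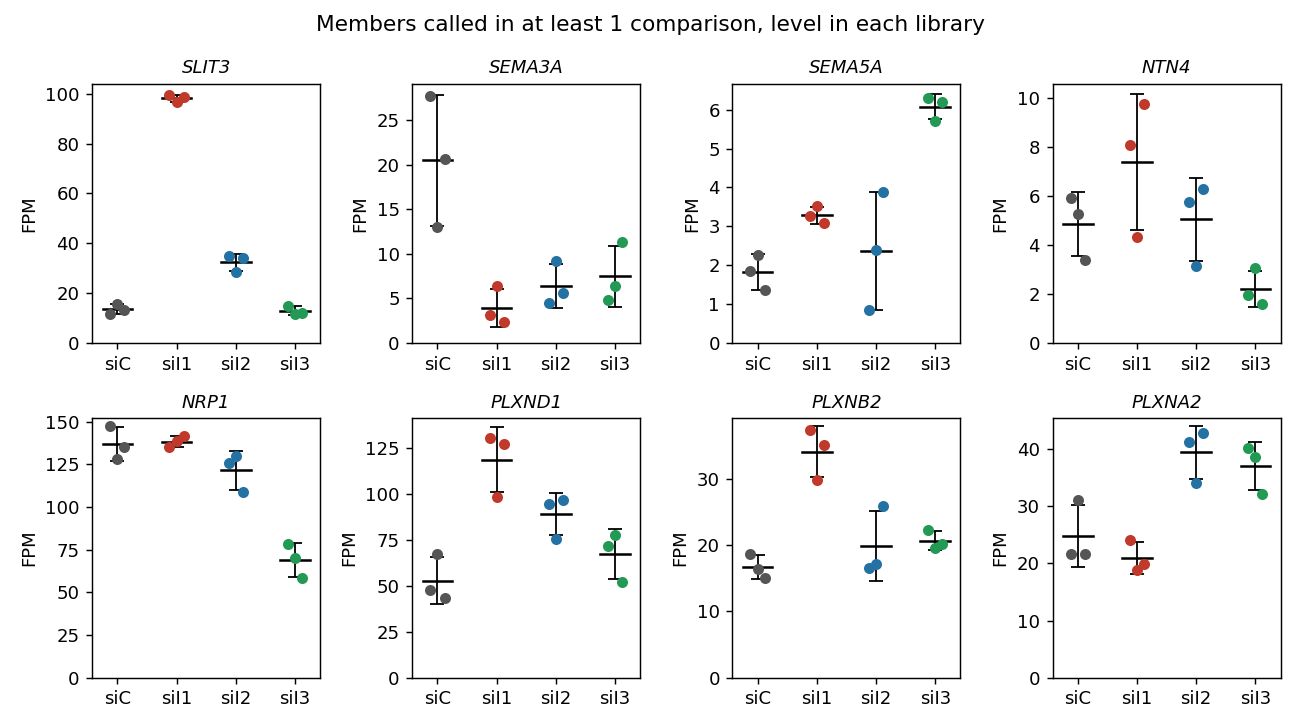
FPM (vertical axis, from 0) in each of the 3 libraries of siC, siI1, siI2 and siI3 (horizontal axis) for the 8 members called in at least 1 of 6 comparisons; points are libraries in the order of their replicate numbers, and the horizontal line and bars are the mean ± SD. SLIT3 in siI1 (96.6 to 99.4 FPM) and NRP1 in siI3 (58.5 to 78.4 FPM) lie apart from every other group.

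Among the receptors, NRP1, the binding subunit for SEMA3A that also binds VEGF, fell in siI3. Its level was 147, 128 and 135 FPM in siC, 135, 138 and 142 FPM in siI1 and 126, 129.7 and 109 FPM in siI2. It was 78.4, 70.0 and 58.5 FPM in siI3, below all 9 other libraries. The mean in siI3 was 50.4% of the siC mean (a log2 fold change of -0.99, SE 0.17, limma adjusted p = 0.00533), on 330 to 1272 reads a library. It was also lower than in siI1 (siI1 minus siI3 1.004, limma adjusted p = 0.00126) and in siI2 (0.81, limma adjusted p = 0.0189). Without siI3 replicate 3 the log2 fold change against siC was -0.87 (limma adjusted p = 0.00526), and after the GC and length correction -0.60 (limma adjusted p = 0.0262). The difference between siI2 and siI3 missed the threshold without siI2 replicate 1 (0.78), siI2 replicate 2 (0.76) or siI3 replicate 2 (0.83). That difference also missed it without the filter on low reads and with the 6 libraries compared alone. Against siC replicate 2 alone the fold change in siI3 was -0.90 on the log2 scale, at a limma adjusted p of 0.387. In siI1 the log2 fold change of NRP1 was 0.02 with a 95% interval of -0.34 to 0.38. An antisense gene overlaps 4.87% of the exon bases of NRP1. These are bulk libraries, in which fewer cells with a transcript and less RNA per cell cannot be told apart.

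NRP2, the other neuropilin, did not pass the test in any comparison. Its level was 39.5, 43.9 and 38.3 FPM in siC, 46.6, 49.7 and 46.8 FPM in siI1, 67.7, 49.6 and 48.7 FPM in siI2 and 48.7, 42.4 and 49.97 FPM in siI3. The siI2 libraries lay above siC without overlap, with siI2 replicate 1 the highest (log2 fold change 0.42, limma adjusted p = 0.182).

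Plexins are the signalling subunits of semaphorin receptors, and all 9 members were tested. PLXND1, a receptor for class 3 semaphorins in developing vessels, had 47.7, 67.1 and 43.2 FPM in siC and 130.1, 98.0 and 127 FPM in siI1. It had 94.5, 75.5 and 96.7 FPM in siI2 and 71.7, 77.6 and 51.9 FPM in siI3. Both siI1 and siI2 lay above siC without overlap. The mean was 2.25-fold higher in siI1 than in siC (a log2 fold change of 1.17, SE 0.22, limma adjusted p = 0.00406), while in siI2 the log2 fold change of 0.76 had a limma adjusted p of 0.0779.

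The transcript of PLXND1 is GC-rich, 63.5%. After the GC and length correction its log2 fold change was 0.77 in siI1 (limma adjusted p = 0.0082) and 0.38 in siI2. Against siC replicate 2 alone, the difference in siI1 was 0.80 with a limma adjusted p of 0.559. PLXND1 was also 1.76-fold higher in siI1 than in siI3 (0.82, limma adjusted p = 0.0289), a difference of 0.65 without siI3 replicate 3 (limma adjusted p = 0.0728). That call was also lost without siI1 replicate 1 (0.75), siI1 replicate 3 (0.76) or siI3 replicate 1 (0.88), and without the filter on low reads (limma adjusted p = 0.0975). The summed level of the endothelial markers CDH5 and VWF was 55.1 to 72.5 FPM in siC and 134 to 150 FPM in siI1. It was 108 to 127 FPM in siI2 and 96.4 to 109 FPM in siI3. CDH5 made up nearly all of it, and VWF stayed at or below 3.15 FPM. CDH5 was called higher than siC in siI1, siI2 and siI3 (limma adjusted p of 0.000638, 0.0154 and 0.0196), PLXND1 in siI1 only. The part of these markers in the PLXND1 result was not tested.

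PLXNB2, a receptor for class 4 semaphorins such as SEMA4C, had 18.7, 16.4 and 15.02 FPM in siC and 37.4, 29.9 and 35.0 FPM in siI1. It had 16.6, 17.1 and 25.9 FPM in siI2 and 22.3, 19.6 and 20.2 FPM in siI3. The siI1 libraries lay above all 9 others. The mean was 2.04-fold higher in siI1 than in siC (a log2 fold change of 0.99, SE 0.21, limma adjusted p = 0.0109). Its transcript is 63.1% GC, and after the GC and length correction the log2 fold change was 0.58 with a limma adjusted p of 0.103. Against siC replicate 2 alone it was 1.01 with a limma adjusted p of 0.337. Leaving out siC replicate 3 (0.92), siI1 replicate 1 (0.92) or siI1 replicate 3 (0.97) ended the call as well.

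The promoters of PLXND1 and PLXNB2, the receptors called together in siI1, are shown with GC boxes (GGGCGG, both strands, overlapping matches counted) in capitals (RefSeq, GRCh38.p14, chr3:129606627-129606926 and chr22:50301620-50301919, both on the minus strand):
PLXND1: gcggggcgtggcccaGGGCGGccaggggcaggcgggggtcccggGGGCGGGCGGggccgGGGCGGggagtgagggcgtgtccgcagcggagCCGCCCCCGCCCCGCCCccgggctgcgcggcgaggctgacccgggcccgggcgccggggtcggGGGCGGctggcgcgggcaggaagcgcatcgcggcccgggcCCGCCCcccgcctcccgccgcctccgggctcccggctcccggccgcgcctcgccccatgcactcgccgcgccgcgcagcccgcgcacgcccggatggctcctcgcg
PLXNB2: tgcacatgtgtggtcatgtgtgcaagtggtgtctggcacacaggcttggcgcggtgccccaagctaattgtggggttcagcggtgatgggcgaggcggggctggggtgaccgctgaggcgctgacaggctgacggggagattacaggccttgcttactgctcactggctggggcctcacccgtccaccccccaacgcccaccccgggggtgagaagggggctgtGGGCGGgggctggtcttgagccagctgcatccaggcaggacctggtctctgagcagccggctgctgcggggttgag
PLXND1 holds 9 GC boxes in a window of 87.3% GC, and PLXNB2 holds 1 in a window of 66.7% GC, where the median of all promoters is 58.3% GC. Neither window holds CCAAT or TATAAA.

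PLXNA2, a receptor for class 6 semaphorins and a partner of neuropilins, differed between knockdowns and not past the threshold against siC. Its level was 21.7, 31.2 and 21.7 FPM in siC, 24.1, 18.9 and 19.8 FPM in siI1, 41.3, 34.2 and 42.9 FPM in siI2 and 40.3, 38.6 and 32.3 FPM in siI3. The siI2 and siI3 libraries lay above all 6 libraries of siC and siI1. The mean in siI1 was 53.0% of that in siI2 (log2 fold change -0.89, SE 0.21, limma adjusted p = 0.0291) and 56.5% of that in siI3 (-0.80, SE 0.21, limma adjusted p = 0.0255). Against siC the log2 fold change was 0.66 in siI2 (limma adjusted p = 0.0963) and 0.57 in siI3 (limma adjusted p = 0.0801). With replicate number as a block the difference between siI1 and siI2 missed the threshold. It did so too without siI1 replicate 1 (-0.99), 2 (-0.82) or 3 (-0.85) and without siI2 replicate 1 (-0.85) or 3 (-0.82). The difference from siI3 missed it without siI1 replicate 2 (-0.73) or 3 (-0.76) and without siI3 replicate 1 (-0.73) or 2 (-0.76). Without the filter on low reads the differences from siI2 and siI3 both missed it (limma adjusted p of 0.105 and 0.0924).

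The 3 direct comparisons of knockdowns called 2, 5 and 2 members. In siI1 against siI2, where 2.4% of genes tested were called, these were SLIT3 (higher in siI1) and PLXNA2 (lower). In siI1 against siI3, with a background of 7.05%, SLIT3, NRP1, NTN4 and PLXND1 were higher and PLXNA2 lower in siI1. In siI2 against siI3, with a background of 2%, SLIT3 and NRP1 were higher in siI2. Each pair of these comparisons shares a group. In all, 8 members were called in at least 1 of the 6 comparisons and 21 tested members in none. The share of all genes tested that were called in at least 1 comparison is not given here, so nothing particular to the members is read from this count.

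The other plexins had intervals that leave room for changes of moderate size. PLXNA1 and PLXNA4, with NRP1 the co-receptors of SEMA3A, were among the 4 most abundant members per length in siC, at 9.17 and 8.09 FPM per kb. PLXNA1 was 100.3 ± 13.9 FPM in siC and 153 ± 17.2 FPM in siI1 without overlap (log2 fold change 0.61, 95% interval 0.14 to 1.08, limma adjusted p = 0.0944). PLXNA4 was 132 ± 20.2 FPM in siC and 101 ± 18.9 FPM in siI3 (-0.40, 95% interval -0.82 to 0.02). PLXNB1, the receptor of SEMA4D, was 2.60 ± 0.928 FPM in siC and 7.41 ± 0.745 FPM in siI2 (1.25, limma adjusted p = 0.0563), on 16 to 39 reads a library. PLXNA3, PLXNB3 and PLXNC1 had group means of 1.25 to 3.47 FPM. PLXNB3 shares 20.4% of its exon bases with SRPK3 on the same strand, so its reads could be split with that gene.

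ROBO1, a receptor of SLIT2 and SLIT3, did not pass the test in any comparison. Its level was 27.0, 22.6 and 32.1 FPM in siC, 19.6, 21.9 and 20.2 FPM in siI1, 23.2, 25.4 and 26.4 FPM in siI2 and 18.9, 18.4 and 27.6 FPM in siI3. The siI1 libraries lay below siC without overlap (log2 fold change -0.38, 95% interval -0.82 to 0.07, limma adjusted p = 0.25). No difference in ROBO1 was detectable past the threshold at this number of libraries. ROBO4, known from endothelium, was 22.4 ± 4.02 FPM in siC and 29.4 ± 0.592 FPM in siI1 (limma adjusted p = 0.301), and antisense genes overlap 10.6% and 6.37% of its exon bases. ROBO3, a receptor of commissural axons, was 7.45 ± 3.91 FPM in siC and 13.04 ± 1.79 FPM in siI3 (limma adjusted p = 0.0825).

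In the order of levels per length in siC, SEMA7A came first, NRP1 second at 11.9 FPM per kb (SD 0.847) followed by PLXNA1 (SD 1.27). PLXNA4 (SD 1.24), PLXND1 at 5.41 (SD 1.30) and SEMA4C at 4.62 FPM per kb (SD 0.745) came next. The libraries of SEMA7A did not overlap those of any other member, while PLXNA1 and PLXNA4 overlapped, as did PLXND1 and SEMA4C. SEMA4A was last of the 29 at 0.144 FPM per kb. In siI1 SLIT3 reached 6.89 FPM per kb, above its 0.945 FPM per kb in siC, where it was 19th of 29.

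**Figure D4:**
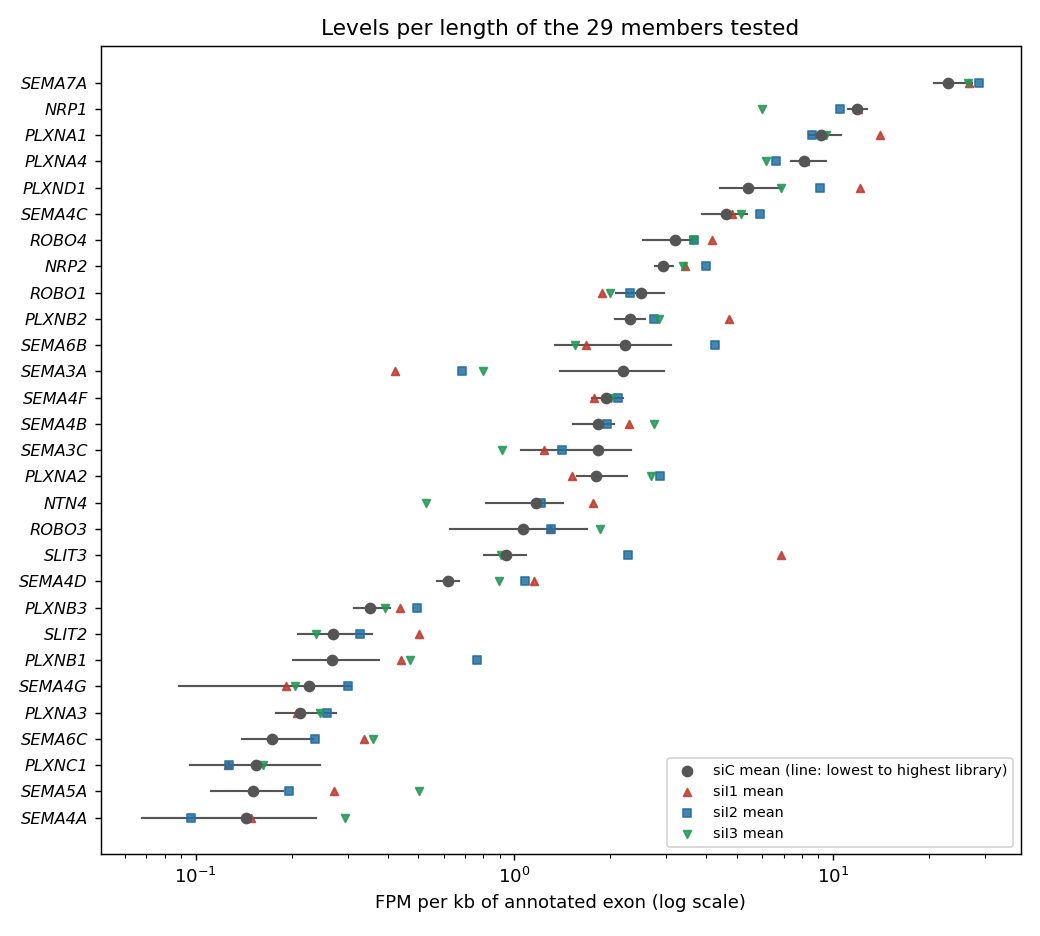
FPM per kb of annotated exon (horizontal axis, log scale) of the 29 members tested (vertical axis, ordered by siC). Dark points are the siC mean of 3 libraries with a line from the lowest to the highest, and coloured marks are the means of siI1, siI2 and siI3; SEMA7A leads at 23.0 FPM per kb in siC, and SLIT3 moves from 0.945 in siC to 6.89 in siI1.

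The 17 members under the filter were NTN1, NTN3, NTN5, ROBO2, SEMA3B, SEMA3D, SEMA3E, SEMA3F, SEMA3G, SEMA5B, SEMA6A, SEMA6D, SLIT1 and all 4 UNC5 receptors. None had more than 20 reads or 3.54 FPM in any library. Their summed level was 4.52 to 11.0 FPM in 11 libraries and 29.6 FPM in siI3 replicate 3. No change is read from them. Of the UNC5 receptors of netrins, UNC5B had 3 to 12 reads in every library. UNC5C had at most 3 reads, UNC5D at most 7, and UNC5A at most 3 apart from 18 in siI3 replicate 3. DCC, the other classical netrin receptor, had at most 12 reads in a library, while neogenin (NEO1) was 14.4 ± 0.912 FPM in siC.

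Of 77 tested genes in 4 further lists of the pathway, 10 passed limma's test in siI1 against siC (4 higher, 6 lower), 3 in siI2 against siC (all lower) and 7 in siI3 against siC (all lower). These are 12.99%, 3.90% and 9.09% of the 77, beside 8.18%, 1.51% and 10.6% of all genes tested, so nothing particular to the lists is read from the counts. Among the ephrins and Eph receptors, repulsive cues at cell contacts, 2 of 10 tested fell in siI1. EPHA4 went from 22.9 ± 2.47 to 10.1 ± 1.43 FPM (-1.10, limma adjusted p = 0.0111) and its ligand EFNB2 from 9.34 ± 0.557 to 4.67 ± 0.796 FPM (-0.87, limma adjusted p = 0.048). Of 14 co-receptors and shared ligands tested, the NRP1 ligand VEGFB rose (0.83) and MET, a receptor kinase that associates with plexins, fell (-1.02) in siI1. In siI3, MET (-1.30) and ITGA1 (-1.28) fell. Of 6 tested genes among the other netrin and RGM receptors and ligands, RGMB was lower in siI1 than in siI3 (-0.74, limma adjusted p = 0.0185).

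Of the 77 genes 47 are intracellular effectors, and 6, 3 and 5 of these were called in siI1, siI2 and siI3 against siC, or 12.8%, 6.38% and 10.6%. In siI1, NCK2, RRAS and MICAL3 rose and ABL2, RND3 and RANBP9 fell. In siI2, ABL2, RND3 and DPYSL3 fell. In siI3, RHOA (-1.64), DPYSL3 (-1.05), DPYSL2 (-1.02), PAK1 (-0.92) and CDC42 (-0.77) fell. DPYSL2 and DPYSL3 are collapsin response mediator proteins, which carry SEMA3A signals to the cytoskeleton. DPYSL3 was 198 ± 15.4 FPM in siC, 187 ± 10.3 FPM in siI1, 81.4 ± 11.1 FPM in siI2 and 95.1 ± 3.04 FPM in siI3, so siI1 lay 1.19 above siI2 on the log2 scale (limma adjusted p = 0.000985). DPYSL2 was 206 ± 9.12 FPM in siC, 244 ± 7.12 FPM in siI1, 178 ± 11.0 FPM in siI2 and 102 ± 22.7 FPM in siI3. RND3, a small GTPase that binds plexins, was 46.4 ± 10.6 FPM in siC, 11.1 ± 4.64 FPM in siI1 and 11.8 ± 6.92 FPM in siI2. After the GC and length correction VEGFB, MICAL3, MET and RANBP9 in siI1 and ITGA1, CDC42 and PAK1 in siI3 missed the threshold (limma adjusted p 0.0508 to 0.362). A fit with siC replicate 2 as the lone control leaves 1 control library, and no count is read from it. Without siC replicate 2, the control library of slope 0.03, the number of the 77 genes passing was 21, 9 and 17 in siI1, siI2 and siI3. Without siC replicate 1 or 3 it was 2, 1 and 2. Without siI1 replicate 1 or 3 the count in siI1 was 1 or 2, without siI2 replicate 1 or 3 that in siI2 was 1, and without siI3 replicate 1 or 2 that in siI3 was 2. The counts were 10 in siI2 without siI2 replicate 2 and 12 in siI3 without siI3 replicate 3. The count in siI1 was also 5 with the replicate block (with or without the GC and length correction), 3 without the filter (none higher) and 16 with the 6 libraries alone. Its split of 4 higher and 6 lower became 6 and 4 with upper-quartile factors, 6 and 5 with RLE factors and 2 and 6 after the GC and length correction. In siI2 it was 5 with DESeq2 or after the GC and length correction. In siI3 it was 4 with the replicate block, without the filter, with edgeR or with upper-quartile factors, and the correction gave 1 higher and 4 lower.

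In the authors' deposited table SLIT3 had a log2 fold change of 2.86 in siI1 and 1.26 in siI2, with FDR of 2.66e-23 and 0.00171. The authors' deposited table gives PLXND1 in siI1 an FDR of 0.00757, PLXNB2 0.0521 and SEMA3A 0.0114. For siI3, the authors' deposited table gives NRP1 an FDR of 0.0043, SEMA5A 0.0182 and SEMA3A 0.313.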

How the data were processed

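Per the labels' protocols, ribosomal RNA was depleted from total RNA, which was fragmented and reverse transcribed with random hexamers. Per the submitters' processing notes, cutadapt 1.6, TopHat2 2.0.13 (hg19), featureCounts 1.4.6 and edgeR 3.12 were used; the sources used here do not give settings, strand or annotation. The deposited signal, in FPM per library, was normalized by the authors, for 57865 features, of which 92 spike-ins were left out. Within a tolerance of 0.01 reads, 100% of the values were whole reads. Per the file headers, the authors also deposited a log2 fold change and an FDR, an adjusted p-value, per knockdown, printed only as theirs.

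limma 3.58.1 (R 4.3.3), with a mean-variance trend, was fitted to log2(FPM + 1) of all 12 libraries with 1 coefficient per group, over the 13782 genes passing filterByExpr (minimum count 10) on the recovered reads. Tests were two-sided, adjusted within each comparison, and tested on simulated data. Alternatives used edgeR 4.0.16 and DESeq2 1.42.0 on recovered reads, other pseudocounts, filters and factors, a replicate block, and a GC and length correction (loess, span 0.5, 13361 genes, 96.9%). Lengths, GC content and overlaps are from GENCODE 29 (GRCh38), while the files use hg19, so no coordinates were transferred.

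Members and gene lists were chosen with earlier results of these data known. Per-library values are printed for each member called and for SLIT2, ROBO1 and NRP2. Of the further lists, the rule was to name up to 4 called genes a list and comparison by size of change; all called in the comparisons with siC are named, those past 4 after their values were seen, and by group means or fold changes only. Between knockdowns, RGMB and DPYSL3 alone are described, chosen after their values were seen. Fitted intervals are at 95%. Marker genes without a row in the table used are not analysed here, and an ovarian lineage marker is not reported here.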

Additional observations from a re-analysis of the deposited data

How the results depend on the processing

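None of the 17 called member values changed sign under any alternative run. SLIT3 in siI1 against siC, siI2 and siI3, SLIT3 in siI2 against siI3 and NRP1 in siI1 against siI3 passed in every setting. Whichever single library of the 2 groups compared was left out, 9 of the 17 passed. Results without a library of another group are not given here. Replicate numbers showed no clear pairing of the libraries. Correlations ran from -0.45 to 0.45 over 18 same-numbered pairs and from -0.32 to 0.43 over 36 others, and 3 of 12 libraries correlated best with their own number. The correlated values were deviations from group means, which also hold each library's GC trend, so a modest effect shared by number could be missed. With the replicate block 15 of the 17 were called and 1 member instead of 2 passed in siI1 against siI2.

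The number of members called in siI1 against siC was 4, and 3 to 4 without single libraries. With DESeq2 or with the 6 libraries compared alone, each of which added PLXNA1 and SEMA4D, it was 6. It was 5 with upper-quartile factors, which added PLXNA1, and 3 with the replicate block and the GC and length correction together. In siI2 against siC it was 1, with 2 under a pseudocount of 4, a minimum mean of 5 FPM, RLE factors or upper-quartile factors. It was 5 with DESeq2 and 0 with the 6 libraries compared alone. Without single libraries it was 1 to 6 (5 without siC replicate 2, 6 without siI2 replicate 2). PLXND1, PLXNA2, PLXNB1 and SEMA3A passed there in both of these fits. In siI3 against siC it was 3, with 1 without the filter and 1 to 6 without single libraries. It was 6 without siC replicate 2 and 5 without siI3 replicate 3. Without siC replicate 1 or 3 or siI3 replicate 1 or 2 it was 1. In siI1 against siI2 it was 2, with 1 without the filter, 4 after the GC and length correction, and 1 to 2 without single libraries. In siI1 against siI3 it was 5, with 3 without the filter and 2 to 4 without single libraries. In siI2 against siI3 it was 2, with 1 without the filter or with the 6 libraries compared alone, 4 after the GC and length correction, and 1 to 3 without single libraries. With the 6 libraries of siI2 and siC alone, where limma called 0 members, 6 members had an unadjusted p under 0.05. The share of all genes tested under that limit is not given here, so nothing particular to the members is read from it. Leaving out siC replicates 1 and 3 leaves 1 control library, and no count of members is read from that fit. The cause of the differences between settings was not tested. Members under 20 reads a library are limited by depth.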
